A study of Mus musculus with 6 samples.

Results

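The genes *Spp1*, *Gpnmb*, *Trem2*, *Cst7*, *Itgax*, *Axl*, *Cd9*, *Lgals3*, *Fabp5* and *Lpl* are known together as genes of lipid-associated phagocytes, also called disease-associated microglia. They were looked up by symbol in the deposited count table, and all 10 were found among its 55573 gene identifiers. They were chosen by their measured difference between Ezh2 and GFP libraries in earlier results of these data, so their own changes are given as a description and carry no test.

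RNA-Seq was done on retinal cells of adult C57BL/6J mice sorted to enrich retinal ganglion cells (RGCs), which send their axons into the optic nerve. Mice received an AAV2 virus in the vitreous that carried *GFP* (control, 3 libraries) or *Ezh2* (3 libraries), the histone H3K27 methyltransferase of PRC2. Both groups underwent optic nerve crush 2 weeks later, and cells positive for CD90.2, the product of *Thy1*, were sorted 3 days after the crush with dead cells gated out by a dye. AAV2 also enters retinal cells other than RGCs, and the promoter in the virus and the number of mice per library were not given in the sources used here.

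Microglia are the resident phagocytes of the retina. When they or macrophages take up dying cells and myelin, they can enter a state in which the lipid receptor Trem2 and its adaptor Tyrobp signal through the kinase Syk, and in which genes for lysosomal enzymes, lipid carriers and adhesion proteins become active. *Spp1* and *Gpnmb* are among the best known genes of that state, but *Spp1* is also a marker of alpha RGCs, *Cd9* and *Fabp5* are used by many cell types, and *Gpnmb* is active in pigment cells.

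The libraries held 30569933 to 35971192 counts. *Ezh2* itself was 28.8 to 34.6 CPM (library counts scaled to a common total of 1000000) in the GFP group and 65.3 to 104.8 CPM in the Ezh2 group. The study left out 1 Ezh2 library after clustering, and the columns of its heatmaps imply that this was Ezh2 replicate 3. Ezh2 replicates 1 and 2 were therefore compared with GFP replicates 1 to 3, and Ezh2 replicate 3 is given apart. Replicate 3 lay below every GFP library in 47.1% of tested genes and above every GFP library in 31.9%. Of the RGC markers, *Thy1* was 87.2 to 113.8 CPM, *Gap43* 20.3 to 26.6 CPM and *Rbpms* 16.4 to 20.8 CPM, whereas *Pou4f1* did not exceed 0.60 CPM and *Pou4f2* did not exceed 0.093 CPM. The Muller glia gene *Glul* was 5446 to 9900 CPM and the myeloid gene *Csf1r* 447.2 to 614.6 CPM. *Rbpms*, *Pou4f1* and *Pou4f2* were singled out after their values were seen. In bulk samples such as these, a change in the number of cells of a type and a change in RNA per cell cannot be told apart.

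Promoter sequences were read for the members first, to show the letters that lie before the genes compared. The RefSeq table (GRCm38.p6) held windows from 250 bases before to 50 bases after a start site for 8 of the 10 members, 9 windows in all because *Spp1* has 2 start sites. *Fabp5* and *Lpl* were not matched. Both strands were searched for the AP-1 motif (TGANTCA), the E-box (CACGTG), the PU.1 core (GAGGAA), the C/EBP motif (TTGCNNAA) and the TATA box (TATAAA). Windows of 5 genes are shown, *Spp1* and *Gpnmb* because they had the largest differences between groups. *Trem2*, *Cst7* and *Itgax* are shown because they matched the same AP-1 pattern as *Gpnmb*, with a smaller difference in *Trem2* and no call in *Cst7* and *Itgax*. Capitals mark the motif matches on either strand.
Spp1, chr5:104434861-104435160, plus strand: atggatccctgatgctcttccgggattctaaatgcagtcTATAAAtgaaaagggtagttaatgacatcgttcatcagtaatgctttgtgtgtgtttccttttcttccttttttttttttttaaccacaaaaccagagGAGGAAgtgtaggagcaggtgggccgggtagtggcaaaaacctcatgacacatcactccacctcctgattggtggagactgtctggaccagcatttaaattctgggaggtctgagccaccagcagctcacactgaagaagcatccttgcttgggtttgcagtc
Gpnmb, chr6:49036268-49036567, plus strand: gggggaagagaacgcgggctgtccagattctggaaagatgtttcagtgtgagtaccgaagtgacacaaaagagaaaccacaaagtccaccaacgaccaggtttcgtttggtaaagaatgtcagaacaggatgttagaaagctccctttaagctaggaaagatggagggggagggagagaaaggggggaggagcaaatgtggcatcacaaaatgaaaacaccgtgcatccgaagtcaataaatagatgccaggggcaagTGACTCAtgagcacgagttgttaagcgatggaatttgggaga
Trem2, chr17:48346151-48346450, plus strand: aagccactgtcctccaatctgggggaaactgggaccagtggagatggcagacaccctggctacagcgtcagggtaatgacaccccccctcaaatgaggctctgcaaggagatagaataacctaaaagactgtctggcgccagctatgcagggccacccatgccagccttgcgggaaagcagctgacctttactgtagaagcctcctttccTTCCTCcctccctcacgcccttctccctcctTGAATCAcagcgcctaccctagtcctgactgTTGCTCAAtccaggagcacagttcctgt
Cst7, chr2:150570165-150570464, plus strand: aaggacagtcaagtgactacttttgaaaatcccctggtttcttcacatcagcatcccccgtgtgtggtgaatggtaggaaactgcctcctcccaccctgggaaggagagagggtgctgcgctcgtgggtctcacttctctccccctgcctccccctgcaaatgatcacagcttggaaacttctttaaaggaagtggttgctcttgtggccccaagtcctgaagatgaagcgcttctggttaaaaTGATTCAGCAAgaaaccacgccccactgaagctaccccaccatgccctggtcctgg
Itgax, chr7:128129300-128129599, plus strand: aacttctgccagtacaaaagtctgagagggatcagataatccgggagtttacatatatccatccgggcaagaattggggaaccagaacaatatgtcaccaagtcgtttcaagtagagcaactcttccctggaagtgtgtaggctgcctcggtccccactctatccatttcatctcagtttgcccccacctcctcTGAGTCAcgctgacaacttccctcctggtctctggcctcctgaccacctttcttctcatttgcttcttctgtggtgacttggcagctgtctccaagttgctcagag

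The letters searched for AP-1, TGANTCA with any base at N, stood in the windows of *Gpnmb*, *Trem2*, *Cst7* and *Itgax*. Of 32851 promoter windows, 7.81% held them. In *Gpnmb* the match was TGACTCA, with its first base at 8 relative to the start site. In *Trem2* it was TGAATCA at -9, in *Cst7* TGATTCA at -6 and in *Itgax* TGAGTCA at -56. The upstream *Spp1* window held no AP-1 match, but a PU.1 core at -113 and a TATAAA at -211. The PU.1 core, present in 28.3% of all windows, also stood in *Trem2* at -40 and in *Axl* at -130, both on the opposite strand. The C/EBP letters, in 10.8% of all windows, stood in *Trem2*, in *Cst7* and at the downstream *Spp1* start site. In *Cst7* the C/EBP and AP-1 matches overlapped. No window held the E-box, against 7.15% of all windows. CpG dinucleotides numbered 3 in each *Spp1* window, 5 in *Trem2*, *Cst7* and *Itgax*, 6 in *Axl* and 9 in *Gpnmb*, and 18 in both *Cd9* and *Lgals3*. The median over all windows was 7. A match describes letters only and is neither a site nor a cause.

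The secreted and membrane glycoproteins had the largest differences. *Spp1* (ENSMUSG00000029304, chromosome 5, 104435118 to 104441050, GRCm38) encodes osteopontin, a secreted ligand of integrins and CD44. Its level was 8.21, 8.09 and 6.77 CPM across GFP replicates 1 to 3, against 105.5 and 158.8 CPM for Ezh2 replicates 1 and 2. Ezh2 replicate 3 had 88.0 CPM. All 3 Ezh2 libraries were far above the GFP range, with replicate 3 the lowest of them. The mean level of replicates 1 and 2 was 17.2-fold that of the GFP group, and that of replicate 3 was 11.5-fold. *Spp1* ranked 13th by log2 fold change from the top of 20241 tested genes. *Gm42793*, a gene overlapping it in sense, held 9 counts or fewer in each library.

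*Gpnmb* (ENSMUSG00000029816, chromosome 6, 49036546 to 49070929) encodes a transmembrane glycoprotein of phagosomes and lysosomes. It had 29.7, 38.4 and 30.3 CPM across GFP replicates 1 to 3, against 408.6 and 536.5 CPM for Ezh2 replicates 1 and 2. Ezh2 replicate 3 reached 374.4 CPM. As for *Spp1*, the groups were far apart and the order of the Ezh2 libraries was the same. The GFP mean was 32.8 ± 4.86 CPM (SD, n = 3), and the mean of Ezh2 replicates 1 and 2, 472.5 ± 90.4 CPM (SD, n = 2), was 14.4-fold that value. The log2 fold changes were 4.12 ± 0.28 (SE) for *Spp1* and 3.86 ± 0.22 (SE) for *Gpnmb* in the 5 libraries, and 3.97 ± 0.24 (SE) and 3.78 ± 0.17 (SE) with replicate 3 included.

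**Figure D1:**
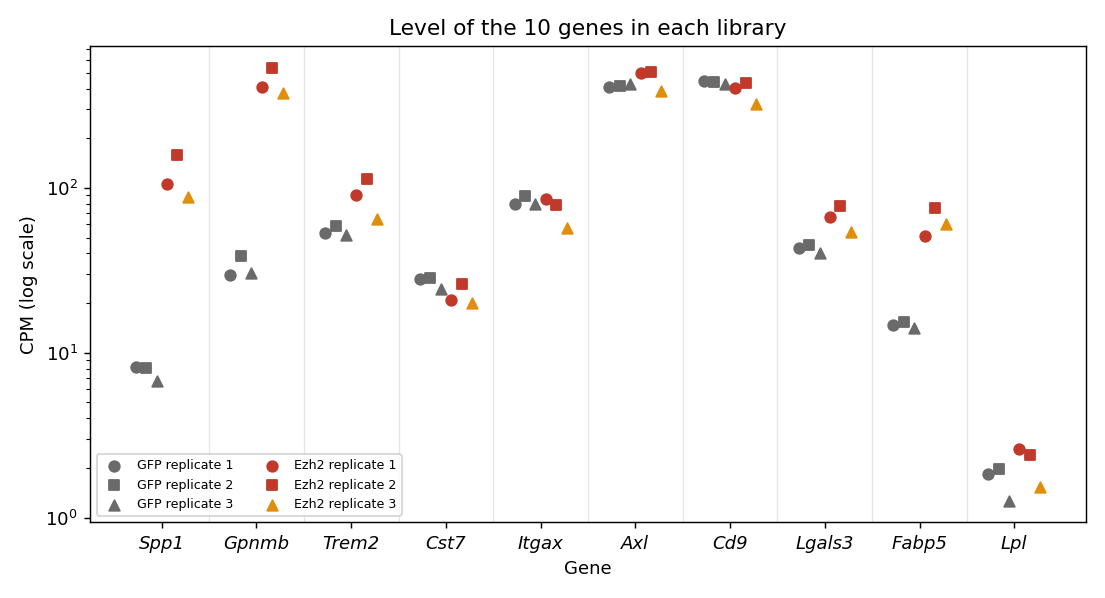
Level of the 10 genes in each library, in CPM on a log axis, with GFP libraries in grey, Ezh2 replicates 1 and 2 in red and Ezh2 replicate 3 in orange. *Spp1*, *Gpnmb* and *Fabp5* in every Ezh2 library lie well above the GFP libraries, with *Gpnmb* at 374.4 to 536.5 CPM against 29.7 to 38.4 CPM, while *Cst7*, *Itgax* and *Cd9* do not lie above them.

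The members for lipid uptake and transport were compared next. *Fabp5* (ENSMUSG00000027533, chromosome 3, 10012548 to 10016607) encodes a cytosolic fatty acid binding protein. It had 14.8, 15.5 and 14.1 CPM across GFP replicates 1 to 3, against 51.3, 75.2 and 60.2 CPM for Ezh2 replicates 1 to 3. All 3 Ezh2 libraries were above the GFP range, and replicate 3 lay between the other Ezh2 libraries, the only member where it did. The mean of replicates 1 and 2 was 4.29-fold that of the GFP group, and that of replicate 3 was 4.08-fold. The related pseudogene *Fabp5l2* held at most 1 count in any library.

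*Lpl* (ENSMUSG00000015568, chromosome 8, 68880491 to 68907448) encodes lipoprotein lipase, which frees fatty acids from lipoproteins. It was the lowest member, with 56, 62 and 39 counts across GFP replicates 1 to 3, against 84, 84 and 55 for Ezh2 replicates 1 to 3. Replicates 1 and 2, at 2.61 and 2.40 CPM, lay above the GFP range of 1.27 to 1.96 CPM, and replicate 3, at 1.53 CPM, lay within it. Its log2 fold change was 0.58 ± 0.29 (SE), and 0.40 ± 0.29 (SE) with replicate 3.

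The receptors on the cell surface fell into unlike patterns. *Trem2* (ENSMUSG00000023992, chromosome 17, 48346401 to 48354147), the lipid receptor of the programme, had 53.1, 58.9 and 52.0 CPM in GFP replicates 1 to 3. It had 90.2 and 113.8 CPM in Ezh2 replicates 1 and 2 and 64.8 CPM in replicate 3. Replicates 1 and 2 were clear of the GFP group, while replicate 3 was only just above it. The mean was 1.87-fold that of the GFP group in replicates 1 and 2 and 1.18-fold in replicate 3.

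*Axl* (ENSMUSG00000002602, chromosome 7, 25757273 to 25788705, minus strand) encodes a receptor kinase that helps phagocytes bind dying cells through Gas6. Its levels were 408.9, 416.4 and 424.2 CPM across GFP replicates 1 to 3, against 495.7 and 504.7 CPM for Ezh2 replicates 1 and 2, with 385.3 CPM in replicate 3. Replicate 3 thus lay below the GFP range and the other Ezh2 libraries above it. The log2 fold change of *Axl* was 0.28 ± 0.05 (SE), below the 1.5-fold threshold, and 0.18 ± 0.09 (SE) with replicate 3.

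*Itgax* (ENSMUSG00000030789, chromosome 7, 128129547 to 128150657) encodes CD11c, an integrin subunit of dendritic cells and activated microglia. It had 80.0, 89.7 and 79.3 CPM across GFP replicates 1 to 3, against 85.2, 79.3 and 57.1 CPM for Ezh2 replicates 1 to 3. Replicates 1 and 2 overlapped the GFP group, and replicate 3 was below all other libraries. Its log2 fold change was -0.00 ± 0.06 (SE), and -0.14 ± 0.13 (SE) with replicate 3.

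*Cd9* (ENSMUSG00000030342, chromosome 6, 125460266 to 125494791, minus strand) encodes a tetraspanin of the plasma membrane. Its levels were 444.6, 438.7 and 425.1 CPM across GFP replicates 1 to 3, against 404.5, 433.0 and 324.4 CPM for Ezh2 replicates 1 to 3. The groups overlapped through replicate 2, with a log2 fold change of -0.05 ± 0.05 (SE). *Cd9* exons overlap the antisense gene *Gm26728*, which held 37 to 60 counts a library, and the pseudogene *Cd9-ps* held at most 2.

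The remaining members act inside or around the cell. *Lgals3* (ENSMUSG00000050335, chromosome 14, 47367751 to 47386160) encodes galectin-3, a sugar-binding protein that gathers at damaged lysosomes. It had 43.3, 45.1 and 40.1 CPM across GFP replicates 1 to 3, against 66.2, 77.8 and 53.9 CPM for Ezh2 replicates 1 to 3. All 3 Ezh2 libraries were above the GFP range, replicate 3 by the smallest margin. The mean of replicates 1 and 2 was 1.68-fold that of the GFP group, and that of replicate 3 was 1.26-fold.

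*Cst7* (ENSMUSG00000068129, chromosome 2, 150570415 to 150578944) encodes cystatin F, an inhibitor of lysosomal cathepsins. It had 27.9, 28.6 and 24.4 CPM across GFP replicates 1 to 3, against 21.02, 26.1 and 20.0 CPM for Ezh2 replicates 1 to 3. The groups overlapped through replicate 2, and no Ezh2 library was above the GFP range. Its log2 fold change was -0.18 ± 0.10 (SE), and -0.23 ± 0.12 (SE) with replicate 3.

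Across the members, *Spp1*, *Gpnmb*, *Fabp5*, *Trem2* and *Lgals3* were called higher in the 5 libraries (edgeR, adjusted p under 0.05 and fold above 1.5), 5 of 10, and 0 were called lower. The background of this call was 3.80% of 20241 tested genes, 2.52% higher and 1.28% lower. In all 6 libraries 4 were called higher, *Trem2* no longer among them, against 1.62% of 19732 genes called higher and 2.52% called in either direction. Because the members were named with this contrast in view, nothing is read from those counts. All 10 passed the filter on low counts. The median log2 fold change was 0.67 in the 5 libraries and 0.53 in all 6, against -0.01 and 0.01 over all tested genes. Ezh2 replicates 1 and 2 both lay above every GFP library for 7 members, which 21.5% of tested genes did. All 3 Ezh2 libraries lay above every GFP library for 5 members, *Spp1*, *Gpnmb*, *Trem2*, *Lgals3* and *Fabp5*, against 14.6% of tested genes. Ezh2 replicate 3 lay above every GFP library for 5 members, below every one for 4 and within the range for *Lpl*. In that library 31.9% of tested genes lay above every GFP library and 47.1% below.

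**Figure D2:**
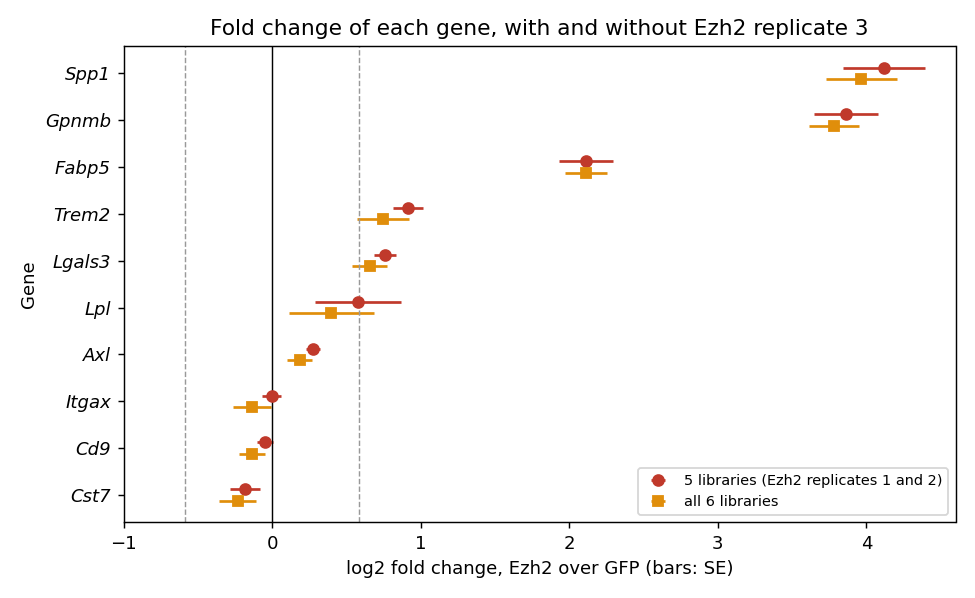
Log2 fold change of each gene, Ezh2 over GFP, with SE bars, for the 5 libraries in red and for all 6 in orange, with dashed lines at 1.5-fold in either direction. *Spp1*, *Gpnmb* and *Fabp5* stand apart, from 2.11 to 4.12 in the 5 libraries, and the values of *Itgax*, *Cd9* and *Cst7* lie at or below 0 in both fits.

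Levels were then compared between members per length, as CPM per kilobase of the longest principal transcript. In the GFP group the order of mean levels was *Cd9* (355), *Axl* (97.7), *Trem2* (50.3), *Lgals3* (30.2), *Cst7* (27.4), *Itgax* (20.5), *Fabp5* (14.96), *Gpnmb* (8.86), *Spp1* (5.10) and *Lpl* (0.41). Of the neighbours in that order, *Lgals3* and *Cst7* overlapped between libraries and the others did not. In Ezh2 replicates 1 and 2 the order was *Cd9* (341), *Gpnmb* (127.7), *Axl* (117.3), *Trem2* (93.8), *Spp1* (87.7), *Fabp5* (64.1), *Lgals3* (50.7), *Cst7* (23.9), *Itgax* (20.3) and *Lpl* (0.61). *Gpnmb*, *Spp1* and *Fabp5* thus moved from below *Itgax* to above it. There the values of *Gpnmb* and *Axl*, of *Trem2* and *Spp1*, of *Spp1* and *Fabp5* and of *Fabp5* and *Lgals3* overlapped.

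Among the Ezh2 libraries, *Spp1*, *Gpnmb*, *Trem2*, *Lgals3*, *Axl*, *Cd9* and *Cst7* were highest in replicate 2 and lowest in replicate 3, an order shared by members that were called and members that were not. *Fabp5* was lowest in replicate 1, and *Itgax* and *Lpl* were highest there. Over the 6 libraries, Pearson's r of log2 CPM was 0.997 between *Spp1* and *Gpnmb*, 0.994 between *Spp1* and *Fabp5*, 0.956 between *Spp1* and *Lgals3* and 0.902 between *Spp1* and *Trem2*. It was -0.58 between *Spp1* and *Cst7* and -0.35 between *Spp1* and *Itgax*. The 36 pairs of the 9 members with at least 100 counts on average ranged from -0.61 to 0.997. These values describe 6 libraries that fall into 2 groups and share that split.

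Of 13771 other genes with at least 100 counts on average, those with the pattern most like *Spp1* over the 6 libraries were *Lyz2*, *Esr1*, *Fcrls*, *Ehd4* and *Wfdc17*, with r of 0.998 to 0.999. *Lyz2*, which encodes the lysozyme of myeloid cells, went from 329.2 to 379.5 CPM in the GFP group to 1406, 1868 and 1223 CPM in Ezh2 replicates 1 to 3. Those most like *Gpnmb* were *Fblim1*, *Ehd4*, *Stab1*, *Cd8a* and *Tnfrsf10b*, with r of 0.998 to 1.00. The T cell marker *Cd8a* had 17.0 to 18.7 CPM in the GFP group and 44.5, 46.2 and 37.9 CPM in Ezh2 replicates 1 to 3. *Stab1*, a scavenger receptor of macrophages, had 55.4 to 64.4 CPM in the GFP group and 218.5, 242.3 and 206.9 CPM in Ezh2 replicates 1 to 3.

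To see how far related genes went with the members, 6 lists were compared in the same fit. These lists too were chosen with earlier results of these data known, so their counts and p values are a description. Of all 20241 tested genes, 3.80% were called. Of 30 other disease-associated microglia genes, 13 rose, 0 fell and 17 did not pass, with a median log2 fold change of 0.43 (all genes, -0.01). *Atp6v0d2*, a subunit of the lysosomal proton pump, rose most, from 0.065 to 0.19 CPM in the GFP group to 1.18 and 1.97 CPM in Ezh2 replicates 1 and 2. Its log2 fold change was 3.59 ± 0.54 (SE, edgeR adjusted p = 1.14e-05), and replicate 3 had 0.862 CPM. *Lyz2* rose by 2.19 ± 0.18 (SE) on the log2 scale, with an edgeR adjusted p of 0.00682. *Cd68*, a lysosomal glycoprotein of macrophages, rose by 1.35 ± 0.09 (SE) and *Clec7a*, a receptor for fungal glucans, by 1.26 ± 0.10 (SE), with edgeR adjusted p of 1.14e-08 and 2.18e-07. *Apoe*, the lipid carrier of glia and macrophages, was the most abundant, with 5471, 5637 and 5501 CPM across GFP replicates 1 to 3, against 8460, 9638 and 7102 CPM for Ezh2 replicates 1 to 3. It rose by 0.72 ± 0.06 (SE) on the log2 scale, with an edgeR adjusted p of 1.28e-10. With replicate 3 included, 12 genes of this list rose.

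Of the 21 lipid handling genes, 17 were tested, 8 rose and 0 fell, with a median of 0.72 that ranged from 0.45 to 0.82 over the alternatives. *Abca1*, which exports cholesterol from the cell, had 429.4 to 452.4 CPM in the GFP group and 865.1, 954.9 and 758.6 CPM in Ezh2 replicates 1 to 3. Every Ezh2 library was above the GFP range, and the log2 fold change was 1.06 ± 0.05 (SE, edgeR adjusted p = 2.97e-15). *Lipa*, the acid lipase of lysosomes, rose by 1.02 ± 0.07 (SE, edgeR adjusted p = 3.00e-11). *Pltp*, a phospholipid transfer protein, rose by 1.13 ± 0.18 (SE, edgeR adjusted p = 0.00678). *Fabp3*, a fatty acid binding protein like *Fabp5*, rose by 1.37 ± 0.42 (SE, edgeR adjusted p = 0.0205), but it had 0.55 to 0.98 CPM in the GFP group and Ezh2 replicate 1, at 0.93 CPM, lay within that range. Its call was lost with replicate 3 (edgeR adjusted p of 0.117), and without Ezh2 replicate 2 its log2 fold change was 0.35 (edgeR adjusted p of 0.806). Its call was also lost without GFP replicate 1 (0.076) or 3 (0.0942). The call of *Pltp* was lost without Ezh2 replicate 1 (edgeR adjusted p of 0.0939) or replicate 2 (0.115). The anchor of lipoprotein lipase on endothelium, *Gpihbp1*, had 2 counts or fewer in each library and was not tested.

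Of 10 signalling genes around *Trem2*, the adaptor *Tyrobp* and the kinase *Syk* rose, and the other 8 did not pass the call, with a median of 0.44. In all, 8 of the 10 had an edgeR adjusted p under 0.05, most at a fold below the threshold. The share of all tested genes at that p alone was not counted, so nothing is read from this or the similar counts below. *Tyrobp* had 75.6 to 78.1 CPM in the GFP group and 128.3, 149.2 and 96.2 CPM in Ezh2 replicates 1 to 3, the same order as *Trem2*. Its log2 fold change was 0.86 ± 0.06 (SE) and that of *Syk* 0.68 ± 0.07 (SE), with edgeR adjusted p of 3.66e-11 and 1.93e-08. *Inpp5d*, a phosphatase that opposes this signal, was the most abundant, with 0.47 ± 0.05 (SE), an edgeR adjusted p of 4.41e-08 and a fold below the threshold.

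Receptors for osteopontin were examined beside *Spp1*. None of 9 rose or fell by the call in the 5 libraries, the median was 0.05, and 4 had an edgeR adjusted p under 0.05 at a smaller fold, the same number as at an unadjusted p under 0.05. By DESeq2 the count called was also 0. *Itgav*, the most abundant, had 705.5 to 735.3 CPM in the GFP group and 623.3, 640.4 and 563.9 CPM in Ezh2 replicates 1 to 3. Its log2 fold change was -0.18 ± 0.05 (SE, edgeR adjusted p = 0.00847). *Itga4*, singled out after its values were seen, had 0.58 ± 0.07 (SE), just below the threshold, and an edgeR adjusted p of 2.00e-06. *Itga4* was called without GFP replicate 2 and without Ezh2 replicate 2.

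Of 14 partners of *Itgax* and phagocytic receptors, 13 were tested, 1 rose and 0 fell, with a median of 0.04. The scavenger receptor *Msr1* had 6.74 to 7.49 CPM in the GFP group and 15.03, 15.2 and 9.84 CPM in Ezh2 replicates 1 to 3, a log2 fold change of 1.08 ± 0.13 (SE, edgeR adjusted p = 2.41e-07). *Lrp1*, an endocytic receptor and the most abundant of the list, had 0.04 ± 0.05 (SE, edgeR adjusted p = 0.624). *Marco* had 0 counts in each library.

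Transcription factors of the programme completed the lists. Of 17, *Tfec* and *Cebpa* rose, 0 fell, and the median was 0.44. *Cebpa*, a myeloid factor, had 36.9 to 43.3 CPM in the GFP group and 64.3, 61.3 and 49.1 CPM in Ezh2 replicates 1 to 3, with a log2 fold change of 0.69 ± 0.07 (SE, edgeR adjusted p = 4.28e-08). *Tfec*, a relative of *Mitf*, had 1.03 ± 0.35 (SE) at 0.75 to 1.46 CPM in the GFP group, with an edgeR adjusted p of 0.0388. The call of *Tfec* was lost with replicate 3 (0.0868), without GFP replicate 1 (0.103) or 2 (0.133), without Ezh2 replicate 1 (0.101) or 2 (0.209), all by edgeR, and by DESeq2 (0.0641). *Bhlhe40*, the most abundant, had 0.15 ± 0.05 (SE, edgeR adjusted p = 0.0342).

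**Figure D3:**
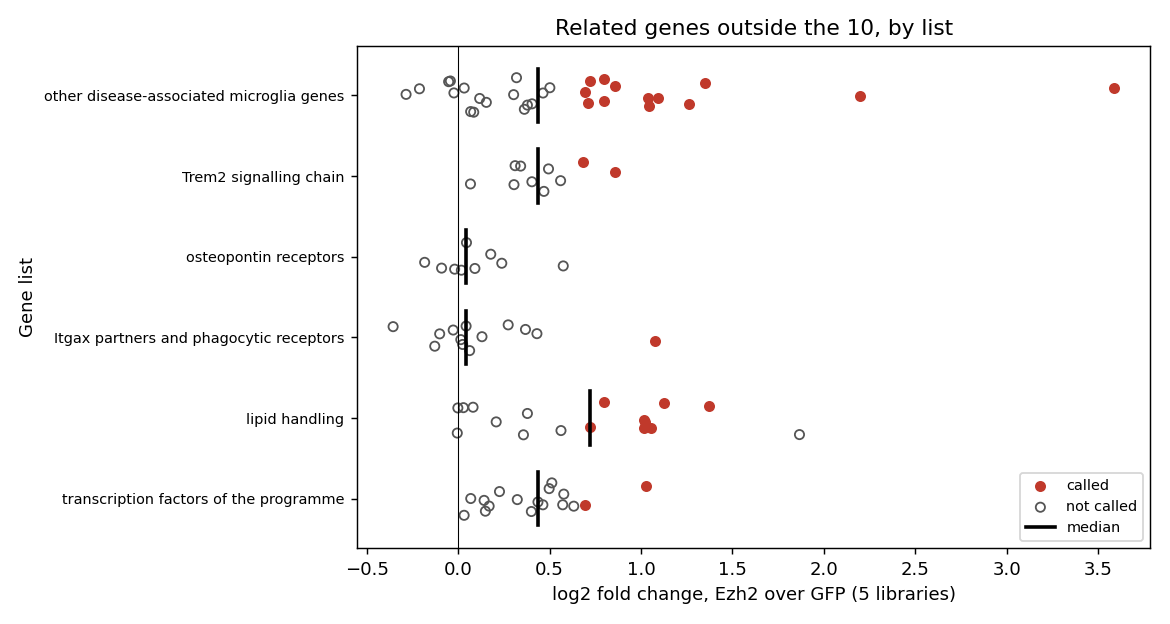
Log2 fold change of each tested gene in the 6 related lists, Ezh2 over GFP in the 5 libraries, with filled points for called genes, open points for others and black bars for list medians. Called genes are all to the right of 0, with medians of 0.43 and 0.72 in the disease-associated microglia and lipid handling lists and of 0.05 and 0.04 in the receptor lists.

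Markers of cell types that could carry these genes were summed in each library. The 12 pan-myeloid markers summed to 1862 to 2076 CPM in the GFP group and 3559, 4086 and 3610 CPM in Ezh2 replicates 1 to 3, with 4 of 12 called higher and a median log2 fold change of 0.49. Of the 12, 5 also stand in related lists, among them the called *Lyz2*, *Cd68* and *Tyrobp*, so this sum is not separate from those lists. *Lyz2* had 329.2 to 379.5 CPM in the GFP group and 1223 to 1868 CPM in the Ezh2 libraries. *Csf1r* had 499.3 to 545.0 CPM in the GFP group and 447.2 to 614.6 CPM in the Ezh2 libraries. *Ptprc* and *Coro1a*, which are not confined to myeloid cells, had 616.8 and 522.6 CPM in Ezh2 replicate 3. Their GFP ranges were 195.6 to 250.3 and 235.4 to 248.4 CPM. In replicate 3, 7 of the 12 markers lay above every GFP library and 3 lay below, *Csf1r*, *Itgam* and *Adgre1*. Of all tested genes, 31.9% lay above and 47.1% below in that library. The 11 homeostatic microglia markers, with *Cx3cr1* and *Selplg* the most abundant, summed to 594.5 to 659.1 CPM in the GFP group and 714.6, 716.0 and 546.3 CPM in Ezh2 replicates 1 to 3, with 1 higher, 1 lower and a median of 0.05. The 12 markers of border and infiltrating macrophages, led by *Stab1* and *Ccr2*, summed to 206.9 to 230.9 CPM against 463.9, 495.8 and 402.4 CPM, with 6 of 11 tested genes higher and a median of 0.66. Their part in the higher levels of *Spp1*, *Gpnmb*, *Fabp5*, *Trem2* and *Lgals3* was not tested.

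Members were therefore also expressed per 1000 CPM of the pan-myeloid and homeostatic microglia sums, a step added after the data were seen. They were not expressed per sum of the border and infiltrating macrophage markers. Per pan-myeloid sum, *Spp1* was 8.80-fold and *Gpnmb* 7.42-fold the GFP mean in Ezh2 replicates 1 and 2, and 6.26-fold and 6.26-fold in replicate 3. *Fabp5* was 2.19-fold and 2.23-fold. *Trem2* was 0.96-fold and *Lgals3* 0.87-fold in replicates 1 and 2, but with *Lyz2* left out of the sum, also after the data were seen, they were 1.37-fold and 1.24-fold, and 0.80-fold and 0.85-fold in replicate 3. Both sums also hold *Ptprc* and *Coro1a*, which are not confined to myeloid cells, so folds in replicate 3 are not per myeloid RNA alone. They hold *Cd68* and *Tyrobp* as well, which were called higher in the disease-associated microglia list. Without *Lyz2* the sum was 1533 to 1697 CPM in the GFP group and 2153, 2218 and 2386 CPM in Ezh2 replicates 1 to 3. Against that sum, *Spp1* was 12.7-fold, *Gpnmb* 10.6-fold and *Fabp5* 3.15-fold in replicates 1 and 2. *Itgax* was 0.515-fold, *Cd9* 0.496-fold and *Cst7* 0.45-fold with *Lyz2* in the sum and 0.731-fold, 0.707-fold and 0.643-fold without it. Per homeostatic microglia sum, *Spp1* was 15.3-fold and *Gpnmb* 12.8-fold in replicates 1 and 2 and both were 13.3-fold in replicate 3, while *Trem2* was 1.66-fold and 1.38-fold, *Lgals3* 1.49-fold and 1.46-fold, and *Axl* 1.06-fold and 1.07-fold.

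Other cell types varied in their own ways. Dendritic cell markers, led by *Itgae* and *Ccr7*, summed to 163.2 to 173.3 CPM in the GFP group and 170.0, 164.6 and 259.3 CPM in Ezh2 replicates 1 to 3, with 0 of 8 called by edgeR and 1 at an unadjusted p under 0.05. T cell markers summed to 453.8 to 484.4 CPM against 623.5, 580.9 and 1403 CPM, 2 of 11 higher. Of these, *Il2ra* had 442.2 CPM in Ezh2 replicate 3 and 29.8 to 44.8 CPM in the other libraries. B cell markers, led by *Jchain* and *Cd79b*, summed to 463.8 to 514.7 CPM against 507.4, 477.1 and 288.6 CPM, 0 of 6 called by edgeR and 2 at an unadjusted p under 0.05. Muller glia and astrocyte markers, led by *Glul* and *Apoe*, summed to 25230 to 25780 CPM against 24520, 26340 and 20420 CPM, with 2 of 9 higher, *Gfap* and *Apoe*, and a median of -0.20. *Apoe* also stands in the disease-associated microglia and lipid handling lists. Its higher level is part of this sum, which therefore does not follow the other markers alone. Another 5 of the 9, *Glul* among them at -0.49 ± 0.05 (SE, edgeR adjusted p = 4.01e-08), lay below every GFP library in all 3 Ezh2 libraries with an edgeR adjusted p under 0.05 and a fold below the threshold. The share of all tested genes that did so was not counted, so nothing is read from this number. Replicate 3 alone lay below every GFP library in 47.1% of tested genes. RGC markers, led by *Thy1* and *Gap43*, summed to 157.9 to 162.4 CPM against 186.4, 175.9 and 187.8 CPM, with 1 of 10 tested higher and 1 lower. *Thy1*, the most abundant of them, encodes the antigen used for sorting, so this sum is not a measure of RGCs alone. Endothelial and pericyte markers, led by *Kdr* and *Flt1*, summed to 3582 to 3748 CPM against 3324, 3347 and 2668 CPM, 0 of 8 called by edgeR and 2 at an unadjusted p under 0.05. Rod markers, led by *Gnat1* and *Sag*, summed to 184.6 to 215.2 CPM against 267.5, 282.5 and 168.2 CPM, 1 of 6 higher. Pigment cell markers, led by *Ttr* and *Pmel*, summed to 4.03 CPM or less in each library, with 0 of 2 tested genes called by edgeR or at an unadjusted p under 0.05. Platelet markers, led by *Itga2b* and *Pf4*, summed to 3.32 to 4.002 CPM against 6.18, 6.97 and 9.70 CPM, with 1 of 2 tested genes higher, *Pf4*, and *Ppbp* at 0 counts in each library.

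**Figure D4:**
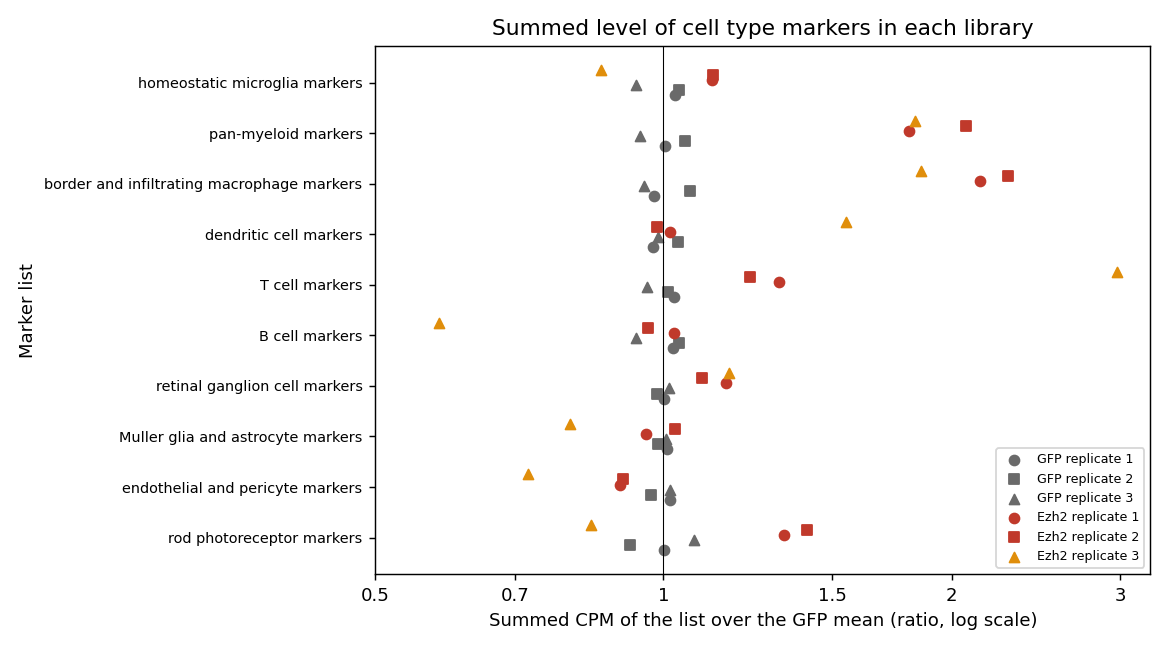
Summed CPM of each marker list in each library, divided by the mean of the GFP libraries, on a log axis, with colours and shapes by library. Pan-myeloid and macrophage markers lie to the right in all 3 Ezh2 libraries, at 3559 to 4086 CPM against 1862 to 2076 CPM for the pan-myeloid sum, whereas homeostatic microglia markers of replicate 3 lie to the left.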

How the data were processed

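RGC-enriched libraries were compared between 3 GFP and 3 Ezh2 samples. The table deposited by the authors holds raw read counts per Ensembl gene. The submitters' processing notes name STAR 2.7.0d and GRCm38, and the counting program, annotation release and strand setting were not given in the sources used here. Of 55573 identifiers, 55480 matched GENCODE M21 (GRCm38), which gave symbols, coordinates and lengths. Sample titles identified all 6 columns.

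Counts were filtered with filterByExpr, scaled by TMM and fitted in edgeR 4.0.16 (R 4.3.3) by its robust quasi-likelihood method on GFP replicates 1 to 3 and Ezh2 replicates 1 and 2. Two-sided P values received Benjamini-Hochberg adjustment over 20241 genes. A call required an adjusted p under 0.05 together with a fold above 1.5, after the study's thresholds. "Rose" and "fell" are used of related genes that were called. SE came from the F statistic. CPM used library totals, and values after ± are SD or SE as stated. Log2 CPM for correlations used a prior count of 2. Levels per length used the longest APPRIS principal transcript. A count of 0 allows up to 3 counts, 0.0834 to 0.0981 CPM, for counting error only. The labels do not say whether samples were separate animals, so p values measure the spread between these samples.

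Members and gene lists were chosen with earlier results of these data known. Named genes were the members, up to 4 called genes with the largest change and the most abundant gene of each related list, the 2 most abundant genes (mean over libraries) and any gene without counts of each marker list, and the 5 genes most like *Spp1* and *Gpnmb*. *Apoe*, *Tyrobp*, *Plin2* and *Soat1* stand in more than 1 related list. Other settings tried were DESeq2 1.42.0, a block for the replicate number, the full set of 6 libraries, omission of each library, a pan-myeloid sum without *Lyz2* (chosen after seeing the data), and changed scaling or filters. On simulated counts of 19852 genes, 200 of 200 changed genes were found and 4 calls were false. The simulation gave every gene the same spread between libraries and changed only genes above a set level, by folds above the call threshold. It therefore does not show how well low genes such as *Lpl*, smaller changes or genes of larger spread were handled. Some marker genes are not reported here and were left out of the marker lists.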

Additional observations from a re-analysis of the deposited data

How the results depend on the processing

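The log2 fold changes of *Spp1* (3.70 to 4.39), *Gpnmb* (3.62 to 4.06), *Fabp5* (1.80 to 2.37), *Trem2* (0.54 to 1.08), *Lgals3* (0.53 to 0.89), *Lpl* (0.23 to 0.70), *Axl* (0.12 to 0.30) and *Cst7* (-0.36 to -0.02) kept their sign in all 18 alternatives, whereas *Itgax* (-0.23 to 0.06) and *Cd9* (-0.22 to 0.01) did not. Among the 5 libraries, DESeq2, other scaling, other filters and the replicate block each called 5 members.

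Using all 6 libraries lowered the count of called genes from 770 to 498, and with the replicate block it was 396. In those 2 fits, the lists stayed within 1.5-fold of their counts, except that the block called 1 transcription factor. DESeq2 and the filter at 50 counts also called 1 transcription factor in place of 2.

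Leaving out each of the 5 libraries gave 624 to 794 called genes and 5 members in each fit. Related lists gave 11 to 13 disease-associated microglia genes, 2 to 3 *Trem2* signalling genes, 0 to 1 osteopontin receptors, 1 phagocytic receptor, 6 to 8 lipid handling genes and 1 to 3 transcription factors. From all 6 libraries, leaving out Ezh2 replicate 3 is the main fit of 5 libraries, with 770 genes and 5 members called. Leaving out another library from all 6 gave 110, 187 and 126 called genes without GFP replicates 1 to 3. It gave 416 and 423 without Ezh2 replicates 1 and 2, and 3 to 4 members over these other omissions. Over these other omissions, lists gave 6 to 10, 0 to 2, 0 to 1, 0, 4 to 6 and 0 to 1 in the same order. Fits with 1 Ezh2 library assume that it varies like the GFP group. Why these counts were lower was not tested.

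No pairing by replicate number was seen, as after removal of group means the libraries sharing a number correlated at -0.0276, -0.0218 and -0.0343. The Ezh2 mean includes replicate 3, which stood far from replicates 1 and 2, so these correlations cannot exclude a pairing. With the block, 722 genes were called in the 5 libraries, and *Ccl6* and *Fabp3* were no longer called. Low counts limited the precision for *Lpl*, *Tfec*, *Fabp3* and *Atp6v0d2*, among others.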
